A study of Mus musculus with 1073 samples.

Results

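The nuclear-encoded genes of the mitochondrial respiratory chain were followed across 13 populations of single cells sorted from the mouse yolk sac. Members were taken by name: every symbol of the filtered count table that starts with Nduf, Uqcr, Cox4 to Cox8 or Atp5, together with Sdha, Sdhb, Sdhc and Sdhd, with pseudogene symbols ending in "-ps" left out. The rule gave 88 of 15967 genes, of which 78 encode subunits of complexes I to V and 10 encode assembly or supercomplex factors. The 26 genes whose symbols start with mt-, encoded by mitochondrial DNA, are described beside them.

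Each library is 1 cell, captured on a Fluidigm C1 chip, and no label ties cells to embryos or pools. Each population therefore stands as 1 sample, and differences between populations are given as sizes with the spread over cells, with no test. At E7.25 and E7.75, Flk1-GFP+ cells came from embryos with GFP at 1 allele of Flk1 (Kdr), a marker of early mesoderm, and were dissociated with trypsin. The Flk1-GFP line was kept on a C57BL/6 background. All other cells came from C57BL/6 embryos and were dissociated with collagenase and dispase. No population was treated with a drug. Haematopoietic progenitor cells (HPC) were sorted as TER119-CDH5+CD41+ at E8.25 and E8.5, and as TER119-CDH5-CD45+CD41low at E9.5 and E10.5. Primitive erythroid cells (EryP) were TER119+ without CD41 or CDH5, and at E10.5 also without CD45. Megakaryocyte-lineage cells (Mk) were TER119-CDH5-CD41+ at E8.5 and TER119-CDH5-CD45-CD41high at E10.5. Macrophages (Mac, E10.5) were TER119-CDH5-CD41-CD45+, and endothelial cells (Endo) were CDH5+ without TER119 or CD41, at E10.5 also without CD45. The gates thus differ between stages as well as between lineages.

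Of 1073 captured cells, 926 were in the filtered table, from 25 Mac cells to 73 and 74 E7.25 cells in 2 lanes, apart from E10.5 EryP, where 3 of 25 cells were kept. Total counts per cell ran from 483830 to 5943204. The libraries were run on 2 flow cells, which separate E7.25, E8.25 and E8.5 from E7.75, E9.5 and E10.5, so that flow cell and stage cannot be told apart in comparisons between these sets. Within a flow cell no populations shared a lane apart from E10.5 EryP and Mac. Lane and population therefore cannot be told apart in the other comparisons within a flow cell. Fixed marker lists of Endo, EryP, Mk, Mac and Flk1-GFP+ mesoderm had their highest summed level in a population of that label. The HPC list did not, at 1431 CPM in E10.5 Mk and 1272 in E8.5 Mk against 848 to 1110 in HPC. E8.5 Mk held 34558 CPM of the EryP list and 389 of the Mk list, and E8.25 HPC 965 CPM of the Endo list. Cx3cr1 and Csf1r averaged 958 and 763 CPM in Mac, and were also at 114.3 and 99.6 CPM in E10.5 HPC. Pf4, a platelet chemokine gene, averaged 163 CPM in E8.5 Mk against 4902 CPM in E10.5 Mk. Globin genes held on average 9.39% of counts in E8.5 EryP, 3.24% in E8.5 Mk and 34.3% in E10.5 EryP. In 44 cells, from 0 in E8.5 EryP and E8.5 Mk to 12 in E10.5 Mk, mt- genes held 20% or more of the counts.

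The respiratory chain passes electrons from NADH (complex I) and succinate (complex II) through complex III to complex IV, which reduces oxygen, and complex V uses the proton gradient made on the way to form ATP. Complexes I, III, IV and V mix nuclear-encoded subunits with subunits made inside the mitochondrion from mt- genes, whereas complex II is wholly nuclear-encoded. Early blood cells make haem and globin in large amounts, and haem synthesis begins and ends in mitochondria.

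The promoters of the members were searched for the core letters of 3 factors long linked to respiratory chain genes, in the RefSeq windows on GRCm38.p6 that hold 300 bases around each start. A window was given for 74 of the 88 members. The NRF1 core (GCATGCG, either strand, where the palindrome CGCATGCG counts once) was found in 13 of them (17.6%), against 7.13% of 10532 genes of the filtered table and 4.01% of all 27025 genes with a window. The YY1 core (AAGATGG) was in 16.2% of members and 8.37% of the table's genes, and the ETS core read by GABP (CCGGAAG) in 23.0% and 19.7%. At least 1 of the 3 was in 47.3% of members and 31.1% of the table's genes. The 250 bases before the start are shown for a complex IV, a complex I and a complex II gene described below, with matches in capitals: Cox6a1 at chr5:115348959-115349208 on the minus strand, Ndufa11 at chr17:56717512-56717761 on the plus strand and Sdhb at chr4:140961021-140961270 on the plus strand.
Cox6a1: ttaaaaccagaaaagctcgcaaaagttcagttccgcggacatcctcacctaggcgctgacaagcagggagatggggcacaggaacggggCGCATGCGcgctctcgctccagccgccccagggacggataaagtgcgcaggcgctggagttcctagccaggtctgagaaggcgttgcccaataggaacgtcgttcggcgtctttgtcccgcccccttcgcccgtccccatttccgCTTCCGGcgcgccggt
Ndufa11: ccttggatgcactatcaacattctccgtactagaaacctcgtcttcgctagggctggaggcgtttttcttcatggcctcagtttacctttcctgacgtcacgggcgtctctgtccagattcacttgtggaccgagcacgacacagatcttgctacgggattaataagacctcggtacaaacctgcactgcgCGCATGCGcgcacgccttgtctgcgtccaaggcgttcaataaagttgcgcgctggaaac
Sdhb: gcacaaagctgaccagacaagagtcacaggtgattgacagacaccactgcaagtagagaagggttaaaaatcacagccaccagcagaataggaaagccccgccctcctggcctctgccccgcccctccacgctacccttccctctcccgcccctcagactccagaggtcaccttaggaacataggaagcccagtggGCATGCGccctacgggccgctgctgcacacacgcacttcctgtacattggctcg
Cox6a1 holds the NRF1 palindrome and, close to its start, the ETS core on the other strand. Within these 250 bases Ndufa11 holds the palindrome alone and Sdhb a single NRF1 core. A match is only a run of letters, and binding was not measured here.

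The summed level of the 88 members was highest in E8.5 EryP, at a mean of 20698 CPM. CPM are the counts scaled by a size factor for each cell, and the error given is the spread over cells. The E8.5 EryP cells ran from 15644 to 30068 CPM around a median of 20417 (SD 2449, n = 66 cells). E10.5 Mac followed at a mean of 18159 CPM, but its cells ran from 8487 to 38787 around a median of 15870 (SD 7722, n = 25). E8.5 Mk stood at 17394 CPM (SD 1905, n = 37), with cells from 13529 to 20978. The 3 E10.5 EryP cells stood at 16377, 16619 and 19909 CPM. The HPC populations lay close together, at 13423 CPM at E8.25 (SD 2460, n = 73), 14470 at E8.5 (SD 1632, n = 89), 14935 at E9.5 (SD 3736, n = 46) and 14876 at E10.5 (SD 2008, n = 87). E10.5 Mk had 14986 CPM (SD 3053, n = 73). The lowest means were in E7.25 Flk1-GFP+ cells, at 11939 CPM (SD 2467, over both lanes), and in E8.5 Endo, at 12335 CPM (SD 2359, n = 79). E10.5 Endo had 13482 CPM (SD 3751, n = 61) and E7.75 cells 13529 CPM (SD 2901, n = 140). The cells of every pair of populations that are neighbours in this order overlapped.

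**Figure D1:**
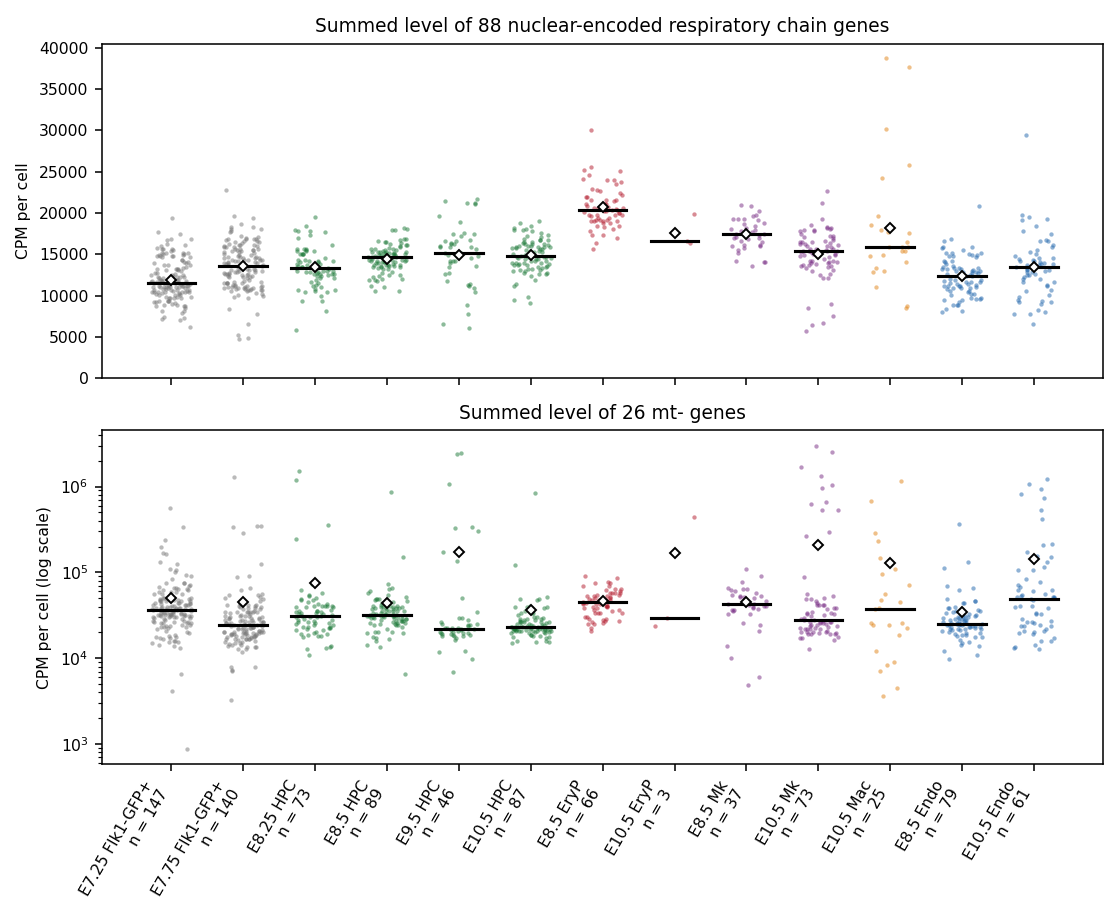
Summed level in CPM of the 88 members (top) and of the 26 mt- genes (bottom, log scale) in each cell, by population. Points are cells, bars medians and diamonds means. The E8.5 EryP cells sit between 15644 and 30068 CPM of members, and single cells reach 3007670 CPM of mt- genes in E10.5 Mk.

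The 2 lanes of E7.25 cells differed from each other about as much as E7.25 did from E7.75. Lane 6 gave a mean of 11084 CPM (n = 73 cells) and lane 7 of 12784 CPM (n = 74), while the lanes of E7.75 gave 13544 and 13520 CPM.

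Compared per kilobase of exon, so that genes of unlike length can be set side by side, complex I held the largest share of the summed level of the 5 complexes in all populations but E10.5 EryP, where complex IV did, and ran from 29.1% in E8.5 EryP to 35.2% in E10.5 Endo, over 36 subunits. Complex IV, which with Ndufa4 has 15 subunits here, held 22.6% in E7.25 cells to 31.9% in E10.5 EryP. Complex V held 19.3% in E10.5 Endo to 25.5% in E8.5 EryP, and complex III 11.7% to 13.8%. Complex II, with 4 subunits, held 8.0% in E10.5 HPC, 3.7% in E10.5 Mac, 4.1% in E10.5 Endo and 3.2% in E10.5 EryP. The highest single member by mean CPM per kilobase over the 12 populations other than E10.5 EryP was Cox6a1, a small subunit of complex IV, at 724. Atp5a1 and Atp5c1, parts of the catalytic head of ATP synthase, followed at 445 and 386 CPM per kilobase. Members at the low end included Atp5l and Atp5g2 at 1.99 and 2.02. Their merged exons span 6443 and 1675 bases and their main transcripts 544 and 731 bases, so division by merged length lowers these values. Most of the length of the main transcripts of Atp5g2 and Atp5l is shared with other transcripts (87.4% and 68.5% of 50-base words), as is 53.0% of Cox7c, so their counts are uncertain. In all, 39 members shared at least 1 such word.

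Of the members, 69 were at 20 CPM or more in each of those 12 populations. Their log2 level ranged over a median of 1.36 from the lowest to the highest population, against 1.75 for all 3745 genes past the same limit. The narrowest ranges were those of Ndufb5 (complex I, 120 to 178 CPM, range 0.56), Ndufa4 (complex IV, 264 to 401 CPM, range 0.60) and Sdhb (complex II, 168 to 262 CPM, range 0.64). The widest were Ndufaf4 and Ndufaf2, assembly factors of complex I, and Ndufs6, a subunit near its NADH site. Ndufaf4 ran from 26.4 CPM in E10.5 Endo to 266 CPM in E8.5 EryP. Ndufaf2 ran from 28.3 CPM in E10.5 Endo to 201 CPM in E10.5 Mac, where its median was 18.8 CPM, and Ndufs6 from 40.2 CPM in E8.5 Endo to 362 CPM in Mac. The genes outside the set whose log2 levels over these 12 populations were most like the sum of the members were Gm10736 (Pearson r = 0.92), Eif2ak1 (0.90), Ubtf (0.90), Ftl2-ps (0.89) and Gm10221 (0.89), of 3663 ranked. Within each population all genes share the same libraries and size factors, so these values are a description.

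At E8.5 the 4 populations were run on 1 flow cell, each in a lane of its own. EryP had more respiratory chain RNA than HPC across nearly the whole set. Of the 78 members that passed the filter (a mean of at least 20 CPM and detection in at least 50% of cells, in 1 of the 2 populations), 74 were higher in EryP. The median log2 ratio of (mean CPM + 1) was 0.48, against 0.09 over all 6950 genes that passed. Part of this gap went with gene length. Shorter members (exon length at or under 1737 bases) had a median of 0.50, against 0.35 for all shorter genes. Longer members had 0.46, against 0.04 for all longer genes. The sum was 1.43-fold higher. Of the 66 EryP cells, 59 lay above the highest HPC cell (18150 CPM), and all 66 lay above the upper quartile of HPC. Scaled by each cell's total count, globin included, all genes shifted by -0.24 and the members' median was 0.27, which left them 0.41 above all genes, as before (0.39). Across the 4 populations, 60 of the 79 members that reached 20 CPM in one of them were highest in EryP, against 34.7% of all 8241 such genes.

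The difference was spread over the complexes. All 8 complex III, 11 complex IV and 13 complex V members were higher in EryP, with medians of 0.57, 0.49 and 0.60, and 32 of 35 complex I members were, with a median of 0.38. Few members differed by 2-fold: 3 were 2-fold or more higher and 0 lower, where 7.61% and 15.1% of all genes passed these limits. Ndufv1, the subunit that binds NADH, averaged 262 CPM in EryP and 105.4 CPM in HPC (log2 ratio 1.31). Its cells ran from 0 to 627 CPM around a median of 245 in EryP, and from 1.74 to 350 CPM around 87.3 in HPC, so the cells overlapped although the medians were far apart. Ndufaf1, an assembly factor, averaged 101.5 and 47.0 CPM (1.10), and Ndufs3, a core subunit near the quinone site, 64.5 and 31.2 CPM (1.02). The abundant catalytic genes moved less: Atp5a1 averaged 2090 CPM in EryP and 1362 CPM in HPC, and its EryP cells ran from 1052 to 4856 CPM around 2046. Uqcrc1, a core protein of complex III, averaged 784 and 530 CPM. The members with the smallest ratios were Ndufaf5 (14.3 and 20.9 CPM), Ndufs4 (103.9 and 112.01 CPM) and Ndufab1 (32.5 and 34.0 CPM).

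E8.5 Mk lay between EryP and HPC. Of 78 members, 72 were higher in Mk than in HPC, the median log2 ratio was 0.27 (all genes 0.05), and the sum was 1.20-fold higher. Shorter members had a median of 0.34 (all shorter genes 0.19) and longer ones of 0.22 (all longer genes 0.02). None passed 2-fold in either direction, where 4.43% of all genes were that much higher and 8.17% lower. Cox6a1 averaged 584 CPM in Mk and 346 CPM in HPC (0.75), Ndufaf3 27.5 and 16.2 CPM (0.73) and Ndufb9 241 and 156.9 CPM (0.62). Complex II had a median of -0.05: Sdha, its flavoprotein, averaged 402 CPM in Mk and 465 in HPC and Sdhb, its iron-sulphur protein, 168 and 185 CPM. The other members, Sdhd (522 and 414 CPM) and Sdhc (67.0 and 64.8 CPM), were higher in Mk, and the sum of complex II was 1159 against 1129 CPM. The E8.5 Mk cells also held erythroid transcripts: Hbb-bh1, an embryonic globin gene, was found in all of them at a mean of 22619 CPM, and the part of this in the result was not tested.

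In E8.5 Endo the members were lower than in HPC. Of 76, 59 were lower, with a median of -0.26 (all genes -0.05), and the sum was 0.85 of that in HPC. By medians over cells the members' median was -0.27 and that of all genes -0.38, so the members were not lower than genes at large by that measure. Ndufaf1 and Ndufaf5 were 2-fold or more lower, at 18.0 against 47.0 CPM and 8.96 against 20.9 CPM, where 9.15% of all genes were. Both are assembly factors, and the median of the 6 assembly factors that passed was -0.83. Ndufb2 averaged 10.9 and 21.8 CPM. Cox6a1 went the other way, at 505 CPM in Endo and 346 CPM in HPC (0.54), as did Ndufb11 (101.5 and 70.8 CPM) and Ndufa8 (157.2 and 124.9 CPM). None was 2-fold higher, where 15.7% of all genes were.

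**Figure D2:**
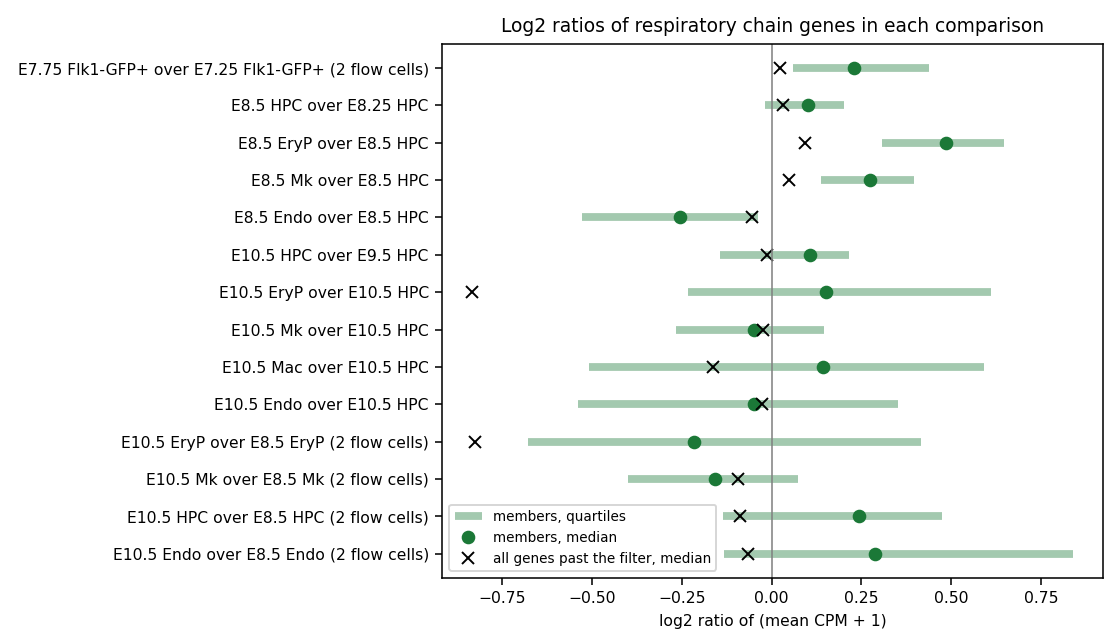
Median (points) and quartiles (bars) of the log2 ratio of (mean CPM + 1) over the members past the filter, and the median of all genes past it (crosses), in 14 comparisons. E8.5 EryP over E8.5 HPC has the highest median of members, 0.48 against 0.09 for all genes.

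At E10.5 the members did not separate the populations as they did at E8.5. E10.5 Mk and HPC had nearly equal sums (14986 and 14876 CPM), and the median log2 ratio over 78 members was -0.05 (all genes -0.02). Uqcrfs1, the Rieske iron-sulphur protein of complex III, was 2-fold or more higher by its mean, at 217 against 60.1 CPM, but 1 Mk cell reached 12039 CPM and the medians were 28.0 and 47.2 CPM. The next largest were Cox5a (54.6 and 28.6 CPM) and Ndufab1 (35.8 and 18.8 CPM). Cox4i2, described with the isoforms below, was the 1 member 2-fold or more lower (0.52 against 20.4 CPM). Sdhd, a membrane anchor of complex II, averaged 283 CPM in Mk and 542 in HPC, with medians of 267 and 518 CPM, and Ndufaf2 66.0 and 98.4 CPM. Of all genes, 13% were 2-fold or more higher in Mk and 9% lower.

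In E10.5 Mac the ratios depended on whether means or medians over cells were taken. By means, 10 members were 2-fold or more higher than in HPC and 11 lower, where 21.4% and 23.5% of all genes were, and the median log2 ratio was 0.14 (all genes -0.16). By medians over cells it was -0.71, with 0 of 73 members 2-fold higher and 26 lower. By that measure the median of all genes was -1.90, and 4.19% of them were 2-fold or more higher and 69.4% lower. In Mac, 31 of 72 members at 20 CPM or more had a mean at least 2-fold above their median (43.1%, against 83.2% of all genes there), while in HPC 0 of 76 did. Single cells set several means. Ndufs6 averaged 362 CPM in Mac, with 1 cell at 7081 CPM, and its median was 51.3 CPM against 63.4 in HPC. Ndufa11 averaged 480 CPM, with cells from 0 to 7247 CPM and a median of 113.6 CPM against 106.2 in HPC. Uqcrfs1 averaged 258 CPM with a median of 59.6 CPM.
Other members were lower in Mac on both measures. Uqcrc2, a core protein of complex III, averaged 123.3 CPM in Mac (median 47.9) and 381 CPM in HPC (median 391), and 21 of 25 Mac cells lay below the lower quartile of HPC. Ndufaf1 averaged 3.79 CPM (median 0.32) against 43.1 CPM (median 37.3), with 23 of 25 cells below that quartile. Ndufaf3 averaged 1.87 and 24.7 CPM. Of the 7 assembly factors that passed, 5 were 2-fold or more lower and 1, Ndufaf2, higher by its mean (201 and 98.4 CPM) but not by its median (18.8 and 92.6 CPM), and the median of the 7 was -2.14. Sdhd averaged 264 CPM with a median of 214. Mac shared its lane with E10.5 EryP, and Hbb-y was found in all 25 Mac cells at a mean of 17.8 CPM, whose part in these levels was not tested.

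In E10.5 Endo the spread was also wide: 23 of 72 members had a mean 2-fold or more above the median (31.9%, against 84.6% of all genes there). By means the median log2 ratio to HPC was -0.05 (all genes -0.03), and by medians over cells it was -0.65, with 25 of 73 rather than 9 of 77 members 2-fold or more lower. By medians the median of all genes was -2.53, and 10.2% of them were 2-fold or more higher and 68.8% lower. The background by means was 21.5% lower and 24.8% higher, and 0 members were 2-fold higher. The assembly factors again stood lowest, with a median of -1.48 over 7. Ndufaf1 averaged 4.15 CPM and was found in 16.4% of cells, against 43.1 CPM and 85.1% in HPC. Ndufaf4 averaged 26.4 CPM, with cells from 0 to 215 CPM around a median of 0, against 124.6 CPM in HPC around a median of 111.4. Sdhd averaged 203 and 542 CPM, with medians of 70.7 and 518 CPM, and Atp5a1 695 and 1399 CPM, with medians of 591 and 1362 CPM. Higher in Endo were Atp5e, a small subunit of the ATP synthase head (241 and 121.1 CPM, but medians of 112.7 and 117.6), Ndufa1 (127.8 and 69.2 CPM) and Atp5h (86.7 and 48.4 CPM). The mt- genes moved against the members here: the median cell of Endo had 49239 CPM of mt- genes and that of HPC 22912 CPM. Without the 7 Endo cells and 1 HPC cell that had 20% or more mt- counts, the mean mt- sums were 56043 and 26645 CPM.

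The 3 E10.5 EryP cells had globin shares of 31.5% to 36.0%, and 1 of them had 23.3% mt- counts. Against E10.5 HPC, 8 members were 2-fold or more higher and 6 lower, where 17.4% and 47.9% of all genes were, and the median was 0.15 (all genes -0.83). Shorter members had a median of 0.12, not above all shorter genes (0.18), and longer ones of 0.16 (all longer genes -1.20). The largest ratio was that of Cox6b2, which stood at 91.5, 56.0 and 12.9 CPM in the 3 cells. Cox6a1 stood at 1988, 821 and 870 CPM, against a mean of 417 in HPC. Sdha stood at 48.7, 0 and 202 CPM, against 380 CPM in HPC. The 3 cells thus spread widely for each of these genes. Ndufs3 averaged 114.4 and 36.8 CPM, and Ndufaf1 191 and 43.1 CPM with a median of 38.0 CPM in EryP. Scaled by each cell's total count, globin included, the median was -0.63 and that of all genes -1.64, so the members lay 1.02 above all genes (0.99 before).

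**Figure D3:**
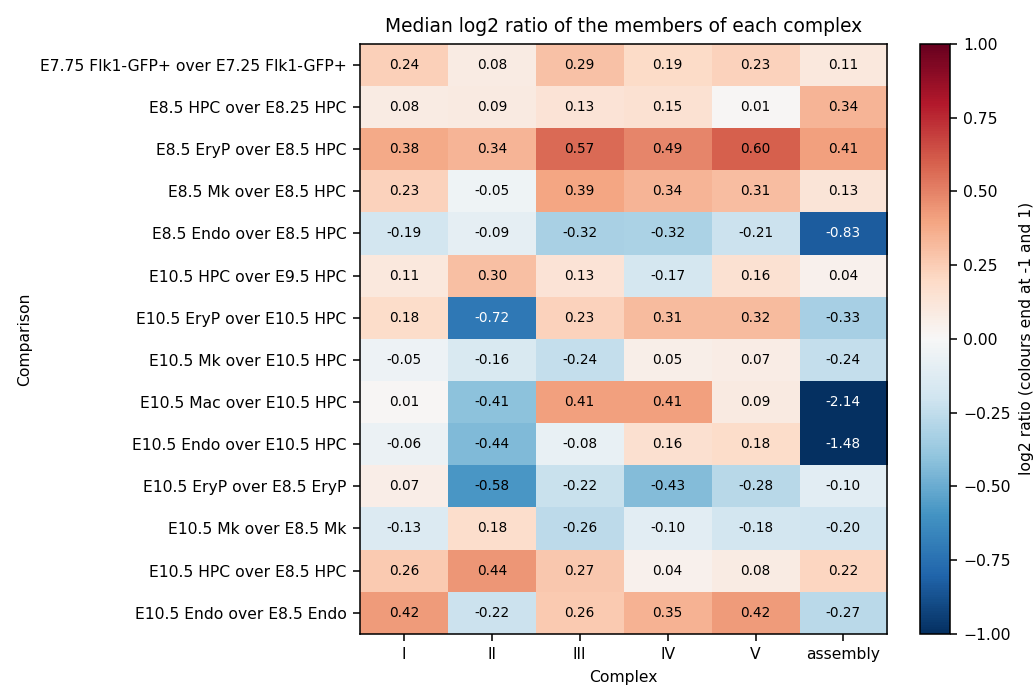
Median log2 ratio of (mean CPM + 1) over the members of each complex, and over the assembly factors, in each comparison. Assembly factors stand at -2.14 in E10.5 Mac and -1.48 in E10.5 Endo relative to E10.5 HPC, and complex II at -0.41 and -0.44.

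Complex II was lower relative to E10.5 HPC in all 4 of the other E10.5 populations, by a median of -0.16 in Mk, -0.41 in Mac, -0.44 in Endo and -0.72 in EryP. The medians of all genes were -0.02, -0.16, -0.03 and -0.83 in the same order, so in EryP complex II was not lower than genes at large. Its sum was 1292 CPM in HPC, 989 in Mk, 927 in Mac, 814 in Endo and 645 in EryP. Sdhd was lower in each, as the values above show, at 233 CPM in EryP, where Sdha was lower as well (83.4 against 380 CPM). Sdhc went the other way in Mac and Endo by its mean (180 and 138.1 CPM) and was lower by its median (26.2 and 57.2 CPM against 93.2).

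Within HPC, the steps between neighbouring stages on 1 flow cell were small. From E8.25 to E8.5, 55 of 76 members were higher, the median was 0.10 (all genes 0.03), and 0 passed 2-fold in either direction, where 1.53% of all genes were higher and 2.27% lower. The ends were Ndufs7 (138.8 and 92.4 CPM), Atp5d (log2 ratio 0.51) and Cox8a (128.9 and 91.5 CPM) above, and Ndufab1 (34.0 and 62.6 CPM), Cox7c (20.8 and 29.4 CPM) and Atp5j (184 and 238 CPM) below. The medians over cells of the last 3 nearly matched (Ndufab1 22.2 and 21.9 CPM). From E9.5 to E10.5 the median was 0.11 (all genes -0.01), and 0 were 2-fold higher and 3 lower (3.31% and 6.99% of all genes). Cox5a, a nuclear-encoded core partner of complex IV, averaged 28.6 CPM at E10.5 and 84.8 CPM at E9.5, with medians of 19.8 and 85.3 CPM. Ndufaf6 averaged 4.50 and 31.0 CPM but had medians of 0.69 and 2.85 CPM, and Ndufab1 18.8 and 45.1 CPM. Sdhc (log2 ratio 0.80), Ndufv1 (140 and 90.4 CPM) and Ndufaf7 (87.2 and 57.2 CPM) were at the other end.

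The remaining stage comparisons cross flow cells. From E7.25 to E7.75, 63 of 77 members were higher, with a median of 0.23 (all genes 0.02) and 0 past 2-fold, where 2.88% of all genes were higher and 4.15% lower. Shorter members had a median of 0.32 (all shorter genes 0.20) and longer ones of 0.14 (all longer genes -0.01). Cox6a1 averaged 439 and 246 CPM, Atp5d 153.7 and 95.2 CPM and Ndufs5 21.4 and 13.2 CPM, while Uqcrb (119.3 and 220 CPM), Ndufaf4 (129.4 and 179 CPM) and Ndufs4 (97.8 and 128.6 CPM) were lower. The mt- sum went the other way, with medians of 24193 CPM at E7.75 and 36574 CPM at E7.25. Lanes of 1 stage also differed, with medians of 19162 and 29171 CPM at E7.75 and of 42607 and 32211 CPM at E7.25. In HPC from E8.5 to E10.5 the sum was nearly level (14470 and 14876 CPM) and the median was 0.24 (all genes -0.09). Cox4i2 and Atp5sl were 2-fold or more higher and Cox5a lower, where 6.72% and 10.6% of all genes were. Atp5sl averaged 26.4 and 12.1 CPM, Ndufb7 90.1 and 50.2 CPM, and Uqcrb 125.9 and 241 CPM. In Mk the sum was 14986 CPM at E10.5 and 17394 at E8.5, and the median -0.16 (all genes -0.09). Uqcrfs1 and Ndufa3 (182 and 83.3 CPM) were 2-fold or more higher by their means (13.3% of all genes), although the medians of Uqcrfs1 were 28.0 CPM at E10.5 and 79.1 CPM at E8.5, and Uqcrb (102.3 and 260 CPM) and Ndufb2 (11.2 and 23.7 CPM) lower (11.2%). Ndufb7 (96.8 and 60.9 CPM) and Ndufaf4 (106.2 and 205 CPM) came next. Uqcrb was thus lower on the flow cell of E7.75 and E10.5 in Flk1-GFP+ cells, HPC, Mk and EryP (log2 ratio -0.97) and nearly level in Endo (-0.05), and shares 43.2% of its 50-base words with other genes.

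In Endo from E8.5 to E10.5 the median was 0.29 (all genes -0.07), and 8 members were 2-fold or more higher and 1 lower, where 14.4% and 15.3% of all genes were. The higher ones were Atp5e, Ndufb8, Ndufb2, Ndufa11, Atp5h, Ndufb3, Cox8a and Ndufa13, named after their values were seen. By medians over cells 2 members were higher and 7 lower, where 4.68% and 63.4% of all genes were, and the members' median was -0.07 (all genes -1.63). Atp5h, whose medians were 82.3 and 30.5 CPM, kept the direction, while Ndufb8 averaged 425 and 148.8 CPM with medians of 139.5 and 129.1 CPM, and 1 cell at 13318 CPM. Shorter members (exon length at or under 1737 bases) had a median log2 ratio of 0.50 and longer ones of 0.09, and for all genes these were 0.08 and -0.09. Cox5a (25.8 and 52.5 CPM), Ndufaf4 (26.4 and 88.3 CPM) and Atp5g3 (367 and 572 CPM) were at the low end. In EryP from E8.5 to E10.5, with 3 cells at E10.5, the median was -0.22 (all genes -0.83), with 2 members 2-fold or more higher and 12 lower (15% and 46.6% of all genes). Shorter members had a median of -0.32 (all shorter genes -0.01) and longer ones of -0.01 (all longer genes -1.11). Cox6b2 (53.5 and 10.9 CPM), Ndufa6 (273 and 132.8 CPM) and Ndufaf1 were highest, and Sdha (83.4 and 589 CPM) and Ndufaf4 (87.2 and 266 CPM) were among the lowest.

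**Figure D4:**
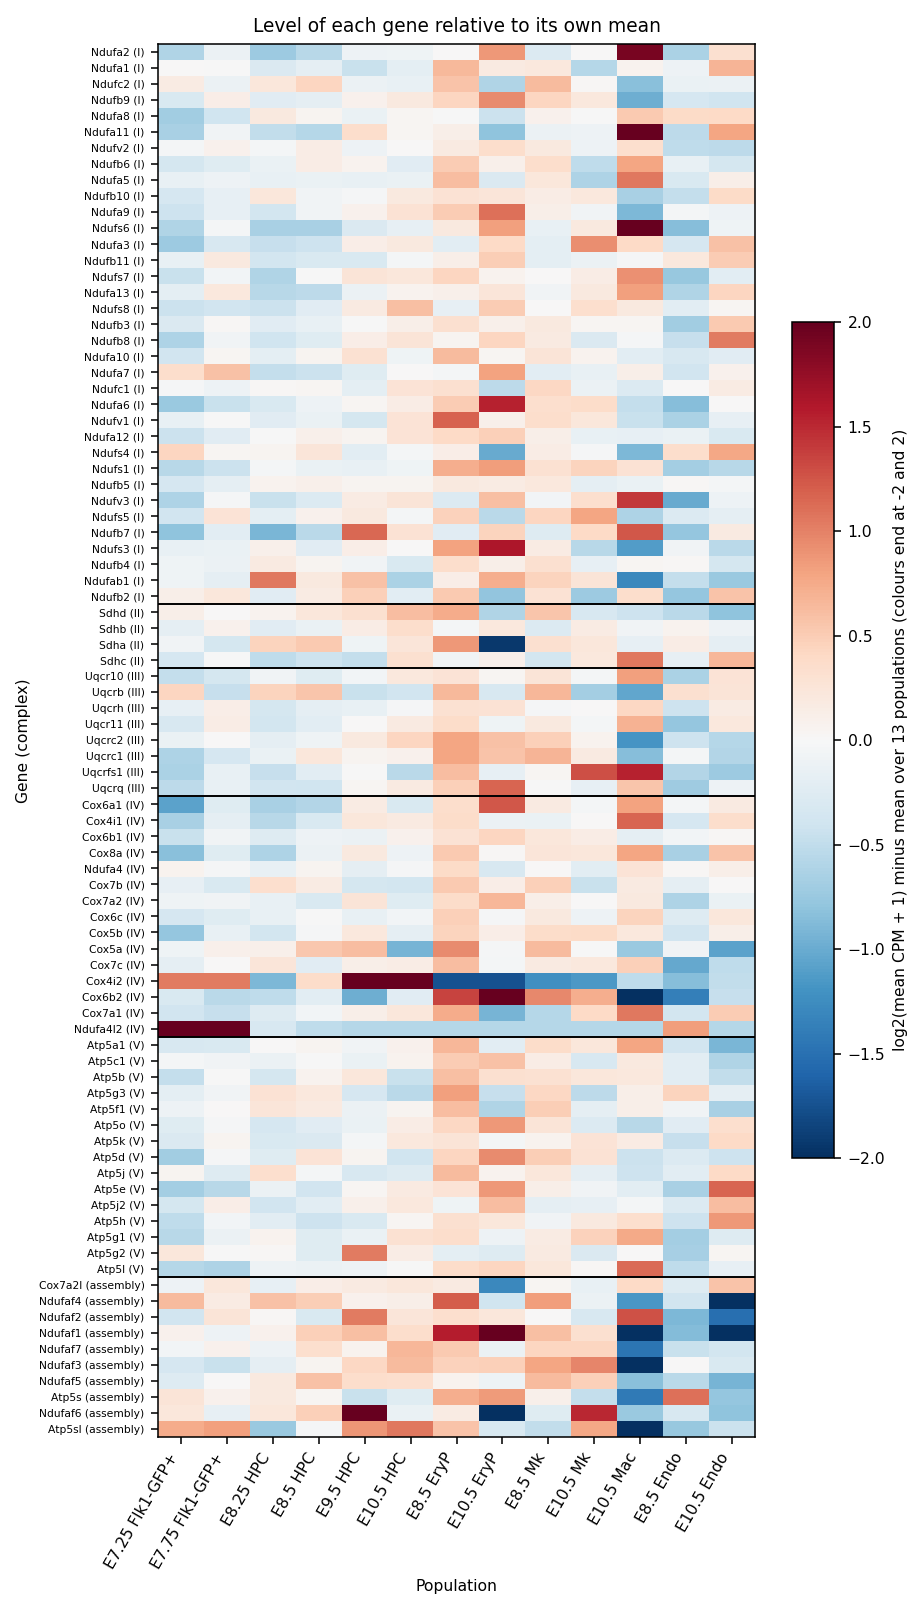
Log2(mean CPM + 1) of each member shown minus its own mean over the 13 populations, by complex and then by level per kilobase. Red is above the gene's own mean and blue below it. E8.5 EryP is red through most of complexes III to V. Among E10.5 HPC, Mk, Mac and Endo, 33 of 80 members that reached 20 CPM were highest in Mac by means (26.0% of all such genes). By medians over cells 5 were.

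The tissue isoforms of complex IV and its relatives were low in most populations, but Cox4i2 had 10 counts or more in 63.0% of E9.5 and 69.0% of E10.5 HPC. Each had its own pattern. Cox4i2 encodes the form of subunit 4 known from lung and from oxygen-sensing cells. It was found in 69.6% of E9.5 HPC (95% exact binomial interval 54.3 to 82.3%) and 80.5% of E10.5 HPC (70.6 to 88.2%), at means of 37.1 and 20.4 CPM. At E8.5 it was in 33.7% of HPC (24.0 to 44.5%) and at E8.25 in 13.7% (6.77 to 23.7%). The Flk1-GFP+ cells had it in 52.4% and 52.1% of cells at E7.25 and E7.75, at 5.88 and 5.90 CPM. E8.5 EryP had it in 0 of 66 cells, for an upper limit of 4.55%, and in 20.0% of Mac, 8.20% of E10.5 Endo and 5.48% of E10.5 Mk. Thinned to 840000 counts per cell, the shares were 71.1% and 76.1% in E9.5 and E10.5 HPC, and 20.0%, 8.77% and 4.48% in Mac, E10.5 Endo and E10.5 Mk. Per kilobase it made up 13.0% of the Cox4i1 and Cox4i2 level in E9.5 HPC and 7.87% in E10.5 HPC, the rest being Cox4i1. These intervals cover counting error only.

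Cox6b2, known as the testis form of subunit 6b, was found in 63.6% of E8.5 EryP (50.9 to 75.1%), 62.2% of E8.5 Mk (44.8 to 77.5%) and 50.7% of E10.5 Mk, at means of 10.9, 8.08 and 6.67 CPM, and in all 3 E10.5 EryP cells. HPC had it in 26.1% to 47.1% of cells. Of E8.5 Endo cells 15.2% had it, of E10.5 Endo 4.92% and of Mac 4.00%. Ndufa4l2, a paralogue of Ndufa4 known to respond to low oxygen, was found in 68.0% of E7.25 cells (59.8 to 75.5%) and 47.9% of E7.75 cells (39.3 to 56.5%), at 7.02 and 5.37 CPM. Elsewhere it was in 10.1% of E8.5 Endo, 2.74% of E8.25 HPC and 1.12% of E8.5 HPC, and in 0 cells of the other 8 populations, where the upper limits ran from 3.45% to 12.0% apart from E10.5 EryP with 3 cells. Cox7a1, the heart and muscle form, was in 7.58% to 23.0% of cells in the populations other than E10.5 EryP, at 2.93 CPM or less. Atp5g3 made up 87.5% to 96.7% of the level per kilobase of the 3 genes for subunit c of ATP synthase in every population. Atp5g1 held between 2.9% and 11.6%. Of the words of the main Atp5g2 transcript, 87.4% were shared with other transcripts, against 10.6% for Atp5g1 and 0% for Atp5g3. The count of Atp5g2 is therefore uncertain, and so are these shares. They also rest on merged exon lengths, which were 1675 bases for Atp5g2 and 2181 for Atp5g3, against main transcripts of 731 and 723 bases. Cox6a2, Cox7b2, Cox8b and Cox8c, further tissue isoforms, were in the table of all captured cells only.

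**Figure D5:**
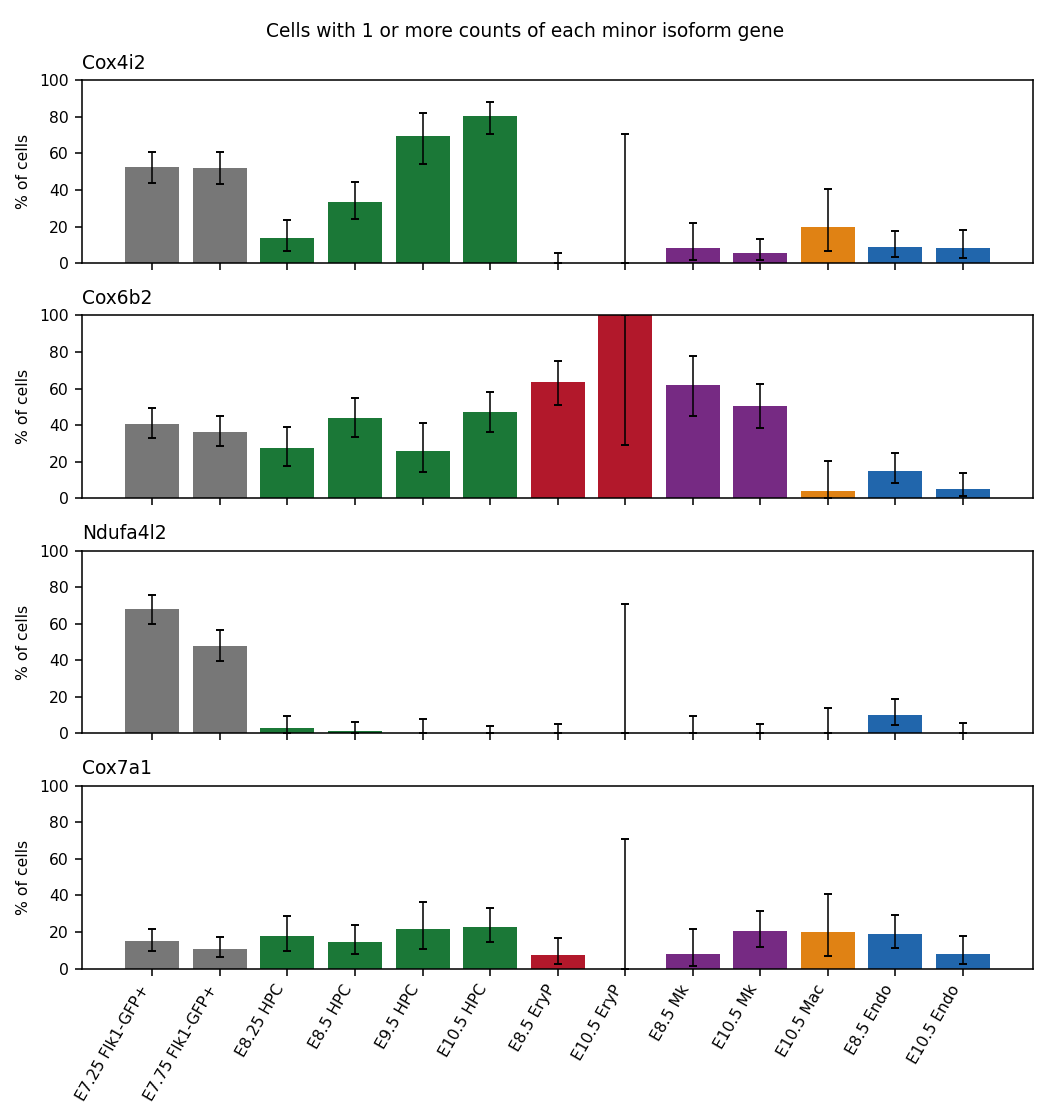
Share of cells with 1 or more counts of 4 minor isoform genes in each population, with 95% exact binomial intervals as bars. Cox4i2 is in 80.5% of E10.5 HPC and 0 of 66 E8.5 EryP cells, and Ndufa4l2 in 68.0% of E7.25 cells.

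Over the 12 populations the mt- genes did not closely follow the members, although at E8.5 they went the same way. Relative to E8.5 HPC, log2 ratios of the mt- sum by medians over cells were 0.50 in EryP, 0.43 in Mk and -0.32 in Endo. By means they were 0.06, 0.02 and -0.36, and those of the members' mean sum were 0.52, 0.27 and -0.23. The summed level of the mt- genes had medians over cells from 22131 CPM in E9.5 HPC to 49239 CPM in E10.5 Endo. Means ran from 34433 CPM in E8.5 Endo to 209043 CPM in E10.5 Mk and were set by single cells, with a highest cell at 3007670 CPM in E10.5 Mk. Over the 12 populations the log2 sums of members and of mt- genes had a Pearson r of 0.09 by means and 0.32 by medians. Within populations, r over cells ran from -0.64 in E9.5 HPC to 0.19 in E10.5 Endo, between measures that share each cell's size factor. The median cell had 1.17 times as much protein-coding mt- RNA as member RNA in E9.5 HPC, 1.74 times in E8.5 EryP and 3.05 times in E10.5 Endo.
Of the 13 protein-coding mt- genes, mt-Co1, mt-Cytb and mt-Nd1 made up 77.0% to 86.9% of the mean level. By medians in the 12 populations, mt-Cytb ran from 5914 to 14742 CPM, mt-Co1 from 4394 to 11402 CPM and mt-Nd1 from 4054 to 9413 CPM, all highest in E10.5 Endo. The medians of mt-Nd4, mt-Nd2 and mt-Nd5 ran from 891 to 1928, 612 to 1638 and 858 to 2001 CPM. Those of mt-Co3 (153.5 to 741 CPM), mt-Atp6 (106.3 to 592 CPM), mt-Co2 (89.7 to 434 CPM), mt-Nd6 (114.9 to 290 CPM), mt-Atp8 (14.9 to 85.1 CPM), mt-Nd3 (13.9 to 66.3 CPM) and mt-Nd4l (0.73 to 4.29 CPM) were lower. E8.5 Mk had the highest medians of mt-Atp6, mt-Atp8, mt-Co2 and mt-Nd2.

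Other genes of the pathway moved with the members in E8.5 EryP. The 13 citric acid cycle genes had a median log2 ratio to HPC of 0.65, and 0 were 2-fold or more lower. Ogdh averaged 316 and 157.5 CPM, 2-fold or more higher. Of 27 further assembly factors, Atpaf2 and Atpif1, the inhibitor of ATP synthase (380 and 145.8 CPM), were 2-fold or more higher and 0 lower, with a median of 0.29. Of all genes, 7.61% were 2-fold or more higher and 15.1% lower, so the higher factors were near the share of all genes. Of 6 genes for mitochondrial DNA transcription and replication, Mterf4 and Tefm were higher by that much. In E8.5 Endo, Cycs (cytochrome c, 37.2 and 86.0 CPM) and Cyc1 (cytochrome c1, 64.4 and 143.7 CPM) were 2-fold or more lower, as were 5 of 26 assembly factors outside the members. Of all genes, 9.15% were that much lower. In E10.5 Mac, 9 of 25 assembly factors outside the members were lower and 3 higher by means, where 23.5% and 21.4% of all genes were. Their median was -0.83, and Tfam, which packages mitochondrial DNA, averaged 37.0 CPM against 88.0 in HPC. The nuclear regulators (5 of 10 passed) had medians from -0.42 to 0.30 in the comparisons at E8.5 and in the stage comparisons of HPC, Mk and Endo, with Yy1 2-fold or more lower from E9.5 to E10.5 by its mean (96.1 and 41.3 CPM) but with medians of 36.5 and 32.3 CPM.

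Of the 88 members, 84 passed the filter in at least 1 comparison, and Atp5g2, Cox7a1, Ndufa4l2 and Ndufb4 in none.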

How the data were processed

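Libraries were of single cells (Nextera XT, paired-end). The deposited counts are whole reads per gene, which the authors aligned with Subread (Rsubread) to GRCm38 and summarised with featureCounts (versions not given in the sources used here). The deposited signal values, called CPM here, hold the cells and genes left by the authors' filter in scater, scaled by scran size factors, and sum to between 699615 and 4176737 per cell. Levels were averaged over cells and ratios taken as log2 of (mean CPM + 1), a step checked on simulated data. A gene entered a comparison with a mean of at least 20 CPM and detection in at least 50% of cells in 1 of its populations. No tests were made, since each population is 1 sample. Symbols were paired with Ensembl IDs through identical count rows (15965 of 15967) and placed with GENCODE M21, a later annotation on the same assembly. Shares of cells have Clopper-Pearson intervals at 95% and were repeated on counts thinned to 840000 per cell. Where 0 cells had the gene, the upper limit given in the text is 3 divided by the number of cells. Intervals cover counting error only.

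Members and lists were chosen with earlier results of these data known. Genes named were the isoform sets, core subunits, the 3 highest and 3 lowest ratios of each comparison, the 3 widest and 3 narrowest ranges, the protein-coding mt- genes and the 5 genes most like the sum. Others past 2-fold, and genes of the further pathway lists, were named after their values were seen. Some genes that the rule names are not reported here. Alternatives were another scaling, medians over cells, a pseudocount of 10, other filters, all captured cells, single lanes, thinning, and leaving out cells, and counted as close within 1.5-fold. Scripts ran in Python 3.11.15 with matplotlib 3.10.9, scipy 1.17.1, pandas 2.3.3 and numpy 2.4.6.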

Additional observations from a re-analysis of the deposited data

Results flagged for a closer look

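Counts were found in data outside the main measurement for 3 tissue isoform genes that the filtered table does not hold. In the table of all 1073 captured cells, Cox6a2 had 219 counts in 11 cells, with a highest count of 40 in an E10.5 HPC cell, Cox7b2 had 10 counts in 2 cells, and Cox8c had 4 counts in 1 cell. Each is above 3 counts, but reads are not independent molecules, so counts in 1 or 2 cells do not show that the gene was expressed. Cox8b had 0 counts.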

How the results depend on the processing

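No paired analysis was possible because the replicate numbers of the labels only number cells within a population. Of 85 alternative values of the summed levels 3 lay more than 1.5-fold from the value reported, as did 4 of the ratios of sums and 5 of the medians of log2 ratios. All but 2 of these concern E10.5 EryP. Its sum was 11145 CPM scaled by total counts, 11143 CPM thinned and 3454 CPM over all 25 captured cells. Its ratio of sums to E10.5 HPC was then -0.57, -0.57 and -2.23, and to E8.5 EryP -2.05 over all captured cells. Its median of members to E10.5 HPC was -0.65 scaled by total counts with the filter applied to the rescaled values and -2.41 over all captured cells, and to E8.5 EryP -2.10 over all captured cells. By medians over cells, the members' median to E10.5 HPC was -0.71 in Mac and -0.65 in Endo. Leaving out each E10.5 EryP cell in turn gave sums of 16498 to 18264 CPM and ratios of sums of 0.15 to 0.30 to E10.5 HPC and of -0.33 to -0.18 to E8.5 EryP. Scaling by total counts moved the median of all genes by -0.24 in E8.5 EryP over HPC, by -0.81, -0.21, -0.17 and -0.30 in E10.5 EryP, Mk, Mac and Endo over HPC, and by -0.39 and 0.15 in E10.5 over E8.5 EryP and HPC. Numbers of members past 2-fold, small at the start, moved more. Scaled by total counts, 1 was higher in E8.5 EryP over HPC, 2 higher and 23 lower in E10.5 EryP over HPC, 0 higher and 2 lower in E10.5 Mk over HPC, 4 higher in Mac over HPC, 1 higher and 23 lower in E10.5 over E8.5 EryP, 1 higher in E10.5 over E8.5 Mk, and 4 higher and 2 lower in E10.5 over E8.5 Endo. By medians over cells, 4 were lower in E8.5 Endo over HPC, 2 higher and 1 lower in E10.5 over E9.5 HPC, 0 higher in E10.5 Mk over HPC, 0 higher and 26 lower in Mac over HPC, 25 lower in E10.5 Endo over HPC, 5 higher in E10.5 over E8.5 EryP, 1 higher and 4 lower in E10.5 over E8.5 Mk, 1 higher in E10.5 over E8.5 HPC, and 2 higher and 7 lower in E10.5 over E8.5 Endo. Without cells with 20% or more mt- counts, an alternative chosen after seeing the data, 13 were higher and 11 lower in E10.5 EryP over HPC and 5 higher in E10.5 over E8.5 EryP. The causes were not tested. Thinned, or at 10 counts or more, 78 shares of cells with a minor isoform stayed within the interval of the share reported and 26 did not.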
